A study of Homo sapiens with 6 samples.

Results

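The genes described here were 52 human genes of mitosis and the spindle, read from a table of 36601 genes. They were chosen by name, with earlier results of these data known. Most act between the entry into mitosis and the separation of daughter cells, and the list also holds the transcription factors FOXM1 and MYBL2. All 52 had a row in the table, and all 52 were among the 12263 genes kept for testing, which needed a level above 1 CPM (counts scaled to the size of the library) in 2 or more of the 6 libraries. RNA-seq was made from NK92 cells, a human natural killer (NK) cell lymphoma line that depends on IL-2 for growth. The control group (shCtrl, n = 3 libraries) carried a control short hairpin RNA, and the knockdown group (shmiR155HG, n = 3 libraries) carried a hairpin against miR155HG, the long non-coding host transcript of miR-155. Both groups had received IL-2 at 1000 U/mL together with IL-12 at 10 ng/mL for 12 h before RNA was taken. No unstimulated cells entered the comparison, the labels give a single name for the hairpin in the sample titles, and the sources used here do not say whether each line was a single clone or whether the 3 libraries of a group came from separate cultures, so p-values measure the spread between these libraries.

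Entry into mitosis is driven by the kinase CDK1 with its B-type cyclins, and exit from it by the anaphase-promoting complex (APC/C), which marks cyclin B and securin for destruction once the spindle checkpoint is satisfied. Between these steps condensins and topoisomerase II compact the chromosomes, kinetochores attach them to microtubules, and kinesins and the central spindle pull and cut the cell apart. NK92 cells divide continuously in culture under IL-2, and many of these mRNAs are made mainly late in the cell cycle, under the transcription factors FOXM1 and B-MYB (MYBL2) and the repressor complex DREAM.

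Promoters of late cell cycle genes are known for a cell cycle homology region (CHR, searched as TTTGAA) and for the NF-Y box (searched as CCAAT), and both were read in the RefSeq promoters (GRCh38.p14, 250 bases before to 50 after each annotated start, both strands). A promoter was matched for 45 of the 52 genes, with 57 promoters in all, and AURKA, BIRC5, BUB3, TTK, UBE2C, TPX2 and FOXM1 had none. CHR letters stood in 63.2% of the 57 promoters against 15.2% of all 35116 promoters of that table. Among the 13218 promoters of genes tested here the share was 10.7%. CCAAT letters stood in 68.4% against 34.6% of all promoters and 35.2% of those of genes tested. Stretches of 30 bases around a match are shown for 4 genes whose mRNA was higher in shmiR155HG cells and 4 whose mRNA was lower, since both kinds carried the same letters. Capitals mark the match, and TTCAAA in CDK1 is TTTGAA read on the other strand.
CCNB1: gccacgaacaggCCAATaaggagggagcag
CDC20: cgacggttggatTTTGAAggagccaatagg
CENPF: ccggtggcggctgcgggcagTTTGAAttag
PLK1: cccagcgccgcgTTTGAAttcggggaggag
CDK1: ctcgcacttggcTTCAAAgctggctcttgg
ESPL1: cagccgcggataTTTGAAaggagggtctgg
MKI67: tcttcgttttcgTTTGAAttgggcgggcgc
NCAPG: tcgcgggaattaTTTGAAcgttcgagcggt
These windows lie at chr5:69167083-69167112 (CCNB1, plus strand), chr1:43358904-43358933 (CDC20, plus), chr1:214603215-214603244 (CENPF, plus), chr16:23678848-23678877 (PLK1, plus), chr10:60778475-60778504 (CDK1, plus), chr12:53268256-53268285 (ESPL1, plus), chr10:128126435-128126464 (MKI67, minus) and chr4:17810932-17810961 (NCAPG, plus). The matched letters began 29 bases before the start site in PLK1 and in MKI67, 31 before it in ESPL1, 35 in NCAPG, 55 in CCNB1 and 65 in CDC20, while in CDK1 and CENPF they began 9 and 40 bases after a start. The same CDK1 promoter also held TTTGAA upstream, centred at −66.5 and −10.5 bases from that start. Where a gene had several CHR matches, the window shows the one nearest a start.

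The letters lay nearer to the start site than over the whole table. Of the 48 CHR matches in these promoters, 58.3% were centred within 100 bases before the start, against 29.2% of 6238 matches in all promoters. Of the 80 CCAAT matches, 63.8% lay there against 44.3% of 17602. By gene, CHR letters were found in 7 of the 10 genes called lower, in 3 of the 4 called higher and in 23 of the 31 not called that had a promoter, and CCAAT letters in 7 of 10, 4 of 4 and 23 of 31. Both motifs stood together in 25 of the 45 genes. These letters were thus present in most genes of each kind, those that moved in either direction and those that passed no threshold. With only 4 genes called higher, the shares cannot be compared closely. A match is a description of the letters, and a promoter without one is only a window that lacks them.

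**Figure D1:**
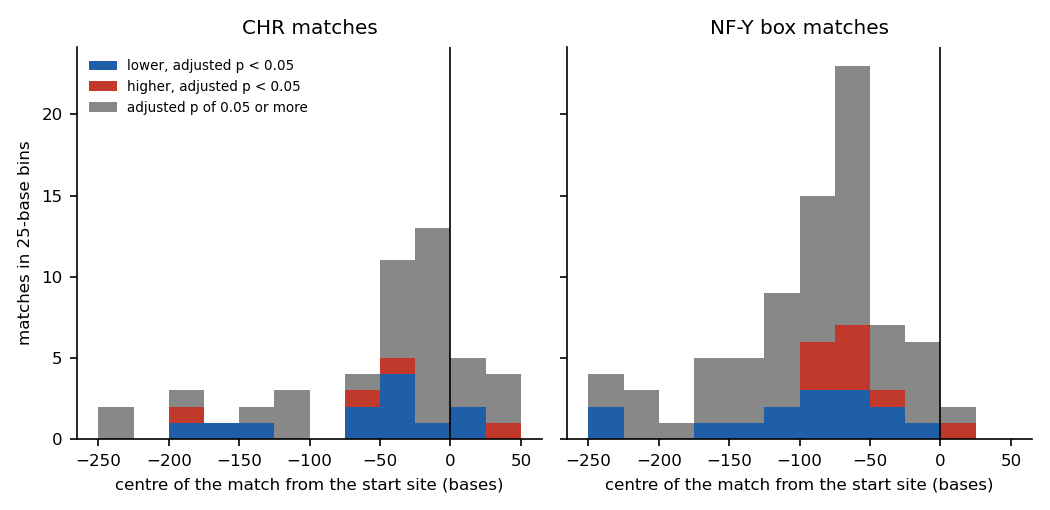
Matches of the CHR and of the NF-Y box in the promoters of the mitosis genes, with the distance of the centre of each match from the start site in bases on the horizontal axis, the number of matches per 25-base bin on the vertical axis, and colour for genes called lower, called higher or not called. Most CHR matches of genes not called lie in the last bases before the start, those of called genes are fewer and spread over the window, and most NF-Y boxes lie within 100 bases before the start.

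The 6 libraries held between 33454786 and 39157264 counts, TMM scaling factors lay between 0.997 and 1.003, and the biological coefficient of variation was 8.71%. The targeted gene, MIR155HG, had 62 to 73 counts in shCtrl and 10 to 28 in shmiR155HG libraries (log2 fold change −1.78, SE 0.43, adjusted p = 0.00450 from edgeR's quasi-likelihood test), which left 29.2% of the shCtrl level. Of 14 NK markers 13 were tested. Of these, 3 were lower (23.1%, against 8.02 percent of all genes tested), led by GZMB (log2 fold change −1.14). Another 3 were higher (23.1%, against 7.26 percent), led by EOMES (0.32). CD7 had group means of 0.327 CPM in shCtrl and 0.200 CPM in shmiR155HG cells. The summed level of the NK markers was 3943 to 4034 CPM in shCtrl and 3355 to 3493 CPM in shmiR155HG libraries. Of the T cell list only CD3E passed the filter, and of the B cell list only PAX5, which was higher in shmiR155HG cells (log2 fold change 0.49), while MS4A1 and CD79B had group means of at most 0.0685 CPM. Of the 5 myeloid markers CSF1R and ITGAM passed, ITGAM being lower (log2 fold change −0.60), and no erythroid, epithelial or fibroblast marker did, with HBB, EPCAM and COL1A2 at 0. The part of these markers in the mitosis genes was not tested.

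The comparison of shmiR155HG with shCtrl cells asked whether the mRNAs of mitosis moved when miR155HG was knocked down in stimulated NK92 cells. At an adjusted p under 0.05 in edgeR's quasi-likelihood test over all 12263 genes, 10 of the 52 genes were lower in shmiR155HG cells (19.2%, against 8.02 percent of all genes tested), 4 were higher (7.69%, against 7.26 percent) and 38 were not called. The 14 calls made 26.9% of the list against 15.3 percent of all genes, and 19.1% of the 8492 genes that lay within the same range of mean CPM (10.5% lower, 8.60% higher). Those 8492 genes had a median of 60.4 CPM and a median SE of 0.066, against 153 CPM and 0.045 for the 52 genes. They were thus not matched to the list in level or precision, and the list was chosen with earlier results of these data known. The 10 lower genes were CDK1, MYBL2, NCAPG, TOP2A, NCAPH, KIF2C, ESPL1, MKI67, KIF23 and NUSAP1, and the 4 higher ones CENPF, CDC20, PLK1 and CCNB1. In RNA from a whole culture, fewer cells in mitosis and less of an mRNA in each such cell cannot be told apart.

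All differences were small. Log2 fold changes ran from −0.39 in CDK1 to 0.37 in CENPF, with a median of −0.040 against 0.00097 over all genes, 33 genes below zero and 19 above. The summed level of the 52 genes was 9590 to 9694 CPM in shCtrl and 9451 to 9594 CPM in shmiR155HG libraries, so that the ranges of the groups met at their edges. Inside this sum the 10 lower genes held 3260 to 3356 CPM in shCtrl and 2935 to 2984 CPM in shmiR155HG libraries. The 4 higher genes held 1108 to 1155 CPM in shCtrl and 1374 to 1403 CPM in shmiR155HG libraries. Much of that rise was CENPF, with a mean of 626 CPM in shCtrl and 807 CPM in shmiR155HG cells. Both sums are over genes picked by their call in the same libraries, so the separation of the groups followed from the choice. The groups did not overlap for 19 genes on the lower side and 8 on the higher side, which is 51.9% of the list against 30.8 percent of all genes tested (15.6 percent lower, 15.2 percent higher). Among the 8492 genes within the same range of mean CPM it was 35.2% (19.1% lower, 16.1% higher).

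**Figure D2:**
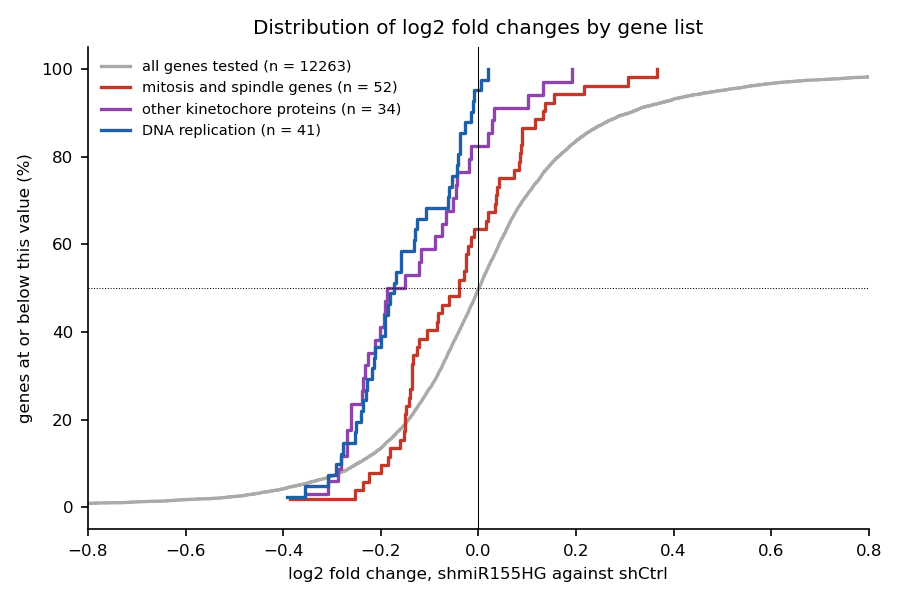
Share of genes (vertical axis, percent) at or below each log2 fold change of shmiR155HG against shCtrl (horizontal axis), for the 52 mitosis genes, related gene lists and all genes tested, each line being 1 list. The line of the mitosis genes crosses 50% at −0.040, near that of all genes at 0.00097, while the DNA replication list crosses it at −0.17.

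Genes of the CDK1 switch moved in opposite directions. Of these 6 genes 33.3% were called, against 15.3 percent of all genes tested. CDK1 (ENSG00000170312, chr10:60778331-60794852, 8 exons), the kinase that starts mitosis, was at 150.2, 134 and 133 CPM in the shCtrl libraries and at 104, 105 and 112 CPM in the shmiR155HG libraries. The groups did not overlap, with all shmiR155HG libraries low, and the level fell by 0.39 on the log2 scale (SE 0.051, adjusted p = 3.19e-06), the largest fall of the 52. CCNB1, the cyclin B1 partner of CDK1, stood at 218, 219 and 209 CPM in shCtrl and at 237, 236 and 237 CPM in shmiR155HG libraries. Its groups were also apart, in the other direction, with a rise of 0.14 on the log2 scale (SE 0.037, adjusted p = 0.0122). Within each library, CCNB1 reads per CDK1 read were 1.55 ± 0.090 (SD, n = 3) in shCtrl and 2.22 ± 0.089 (SD, n = 3) in shmiR155HG cells. None of the other 4 genes of this group was called: cyclin A2 (CCNA2, log2 fold change −0.08), cyclin B2 (CCNB2, 0.13) and the phosphatases that activate CDK1, CDC25B (−0.06) and CDC25C (0.03), had adjusted p-values from 0.138 to 0.904.

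Of the 6 genes of the mitotic kinases and the chromosomal passenger complex, PLK1 alone was called (16.7%, near the 15.3 percent of all genes tested). PLK1, polo-like kinase 1, which acts in mitotic entry, centrosome maturation and cytokinesis, was at 94.4, 103 and 108 CPM in shCtrl and at 112, 118 and 124 CPM in shmiR155HG libraries. The shCtrl libraries were all lower, by a narrow margin between 108 and 112 CPM, and the rise was 0.22 on the log2 scale (SE 0.054, adjusted p = 0.00585). Without shCtrl replicate 1 its adjusted p was 0.0509, and without shmiR155HG replicate 3 it was 0.0597. AURKB, the aurora kinase of the chromosomal passenger complex, was at 107, 104 and 99.9 CPM in shCtrl and at 92.7, 95.6 and 94.3 CPM in shmiR155HG libraries. These groups did not overlap, yet the difference of −0.14 (SE 0.051) missed the threshold at an adjusted p of 0.0694. The other 3 passenger genes, INCENP (log2 fold change −0.02), BIRC5 (survivin, 0.09) and CDCA8 (borealin, 0.04), and the spindle pole kinase AURKA (0.08) were not called.

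Among the 9 genes of the spindle checkpoint and of APC/C, 1 was higher and 1 lower. Each is 11.1%, against 7.26 percent higher and 8.02 percent lower of all genes tested. CDC20 (ENSG00000117399, chr1:43358981-43363203, 11 exons), the protein that activates APC/C and that the checkpoint holds back, was at 178, 188 and 193 CPM in shCtrl and at 219, 235 and 238 CPM in shmiR155HG libraries. The lowest shmiR155HG library exceeded the highest shCtrl library, and the rise was 0.31 on the log2 scale (SE 0.042, adjusted p = 5.09e-06). ESPL1, the separase that cuts cohesin at anaphase, stood at 171, 178 and 186 CPM against 164, 159 and 159 CPM. It fell by 0.15 on the log2 scale (SE 0.042, adjusted p = 0.0156) without overlap of the groups, and lost its call when shCtrl replicate 2 or 3 or shmiR155HG replicate 2 or 3 was left out, with adjusted p-values up to 0.0738.

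The checkpoint genes themselves were not called in the quasi-likelihood test. BUB1B, the checkpoint kinase-like protein BUBR1, was at 153, 165 and 156 CPM in shCtrl and at 160.2, 150.5 and 155.5 CPM in shmiR155HG libraries, 2 interleaved groups (log2 fold change −0.02, SE 0.043, 95% interval −0.11 to 0.064). MAD2L1, which with BUB1B holds CDC20 inactive, missed the threshold by the smallest margin of the list, at −0.13 on the log2 scale (SE 0.043, adjusted p = 0.05002). BUB1 (0.07), BUB3 (−0.03) and TTK (the kinase MPS1, −0.14) were not called, nor were UBE2C (the ubiquitin-conjugating enzyme of APC/C, 0.12) and PTTG1 (securin, the inhibitor of separase, −0.04). MAD2L1 was called lower with DESeq2 and without shCtrl replicate 3. The groups did not overlap for MAD2L1 and TTK (lower) and UBE2C (higher). With ESPL1 and CDC20 this made 55.6% of the 9 genes, against 30.8 percent of all genes tested. CDC20 reads per MAD2L1 read were 1.15 ± 0.084 (SD, n = 3) in shCtrl and 1.56 ± 0.11 (SD, n = 3) in shmiR155HG libraries.

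Of the 7 kinetochore and centromere genes, CENPF was called (14.3%, near the 15.3 percent of all genes tested). CENPF (ENSG00000117724, chr1:214603185-214664574, 20 exons), a large protein of the outer kinetochore and of the nuclear matrix late in the cycle, was at 617, 645 and 616 CPM in shCtrl and at 831, 814 and 775 CPM in shmiR155HG libraries. All shmiR155HG libraries lay far above all shCtrl libraries, and the rise of 0.37 on the log2 scale (SE 0.033, adjusted p = 4.80e-09) was the largest of the 52. CENPE, the kinesin motor of the kinetochore, was at 109, 108 and 105 CPM against 114, 112 and 105 CPM, with groups that overlapped (log2 fold change 0.04, SE 0.049, 95% interval −0.059 to 0.14). CENPF reads per CENPE read thus went from 5.83 ± 0.15 to 7.30 ± 0.054 (SD, n = 3 each). The 4 subunits of the NDC80 complex, which binds the microtubule end, were all below zero without a call: NDC80 (−0.13), NUF2 (−0.02), SPC24 (−0.22) and SPC25 (−0.16), of which SPC24 and SPC25 did not overlap between the groups. CENPA, the centromeric histone H3 variant, had a log2 fold change of 0.02 with an SE of 0.12, at a mean of 23.3 CPM in shCtrl cells.

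Among the 8 mitotic kinesins, 2 were lower and none higher. KIF2C, which depolymerizes microtubules at the centromere, was at 202, 201 and 197 CPM in shCtrl and at 177, 185 and 178 CPM in shmiR155HG libraries, 2 tight groups with a gap between them. It fell by 0.15 on the log2 scale (SE 0.039, adjusted p = 0.00710). KIF23, a motor of the central spindle, was at 174, 157 and 153 CPM against 146, 144 and 146 CPM and fell by 0.15 (SE 0.046, adjusted p = 0.0244). Without shCtrl replicate 1, its highest library, the adjusted p was 0.225, and the call was also lost without any 1 of the shmiR155HG libraries. KIF11, the motor that pushes spindle poles apart, was at 173, 178 and 167 CPM in shCtrl and at 160.3, 164 and 164 CPM in shmiR155HG libraries, groups that did not overlap but differed by −0.08 on the log2 scale (SE 0.041, adjusted p = 0.186). KIF15 (−0.18), KIF18A (−0.15) and KIF4A (−0.14) were below zero and KIF14 (0.09) and KIF20A (0.15), both motors of cytokinesis, above it, none of them called.

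In the group of spindle assembly and cytokinesis 1 of 8 genes was called (12.5%), a share near the 15.3 percent of all genes tested. NUSAP1, which bundles spindle microtubules around chromosomes, was at 196, 181 and 187 CPM in shCtrl and at 175, 167 and 171 CPM in shmiR155HG libraries. Its groups did not overlap, and it fell by 0.14 on the log2 scale (SE 0.041, adjusted p = 0.0247). The call did not hold without shCtrl replicate 1 (adjusted p = 0.153) or without shmiR155HG replicate 2 or 3. ANLN, the contractile ring scaffold anillin, had the most negative value of the others at −0.20 (adjusted p = 0.0665), and PRC1, the bundler of the central spindle, lay at −0.01. TPX2 (0.02), ECT2 (−0.04), ASPM (0.04), DLGAP5 (0.09) and HMMR (−0.11) were not called.

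**Figure D3:**
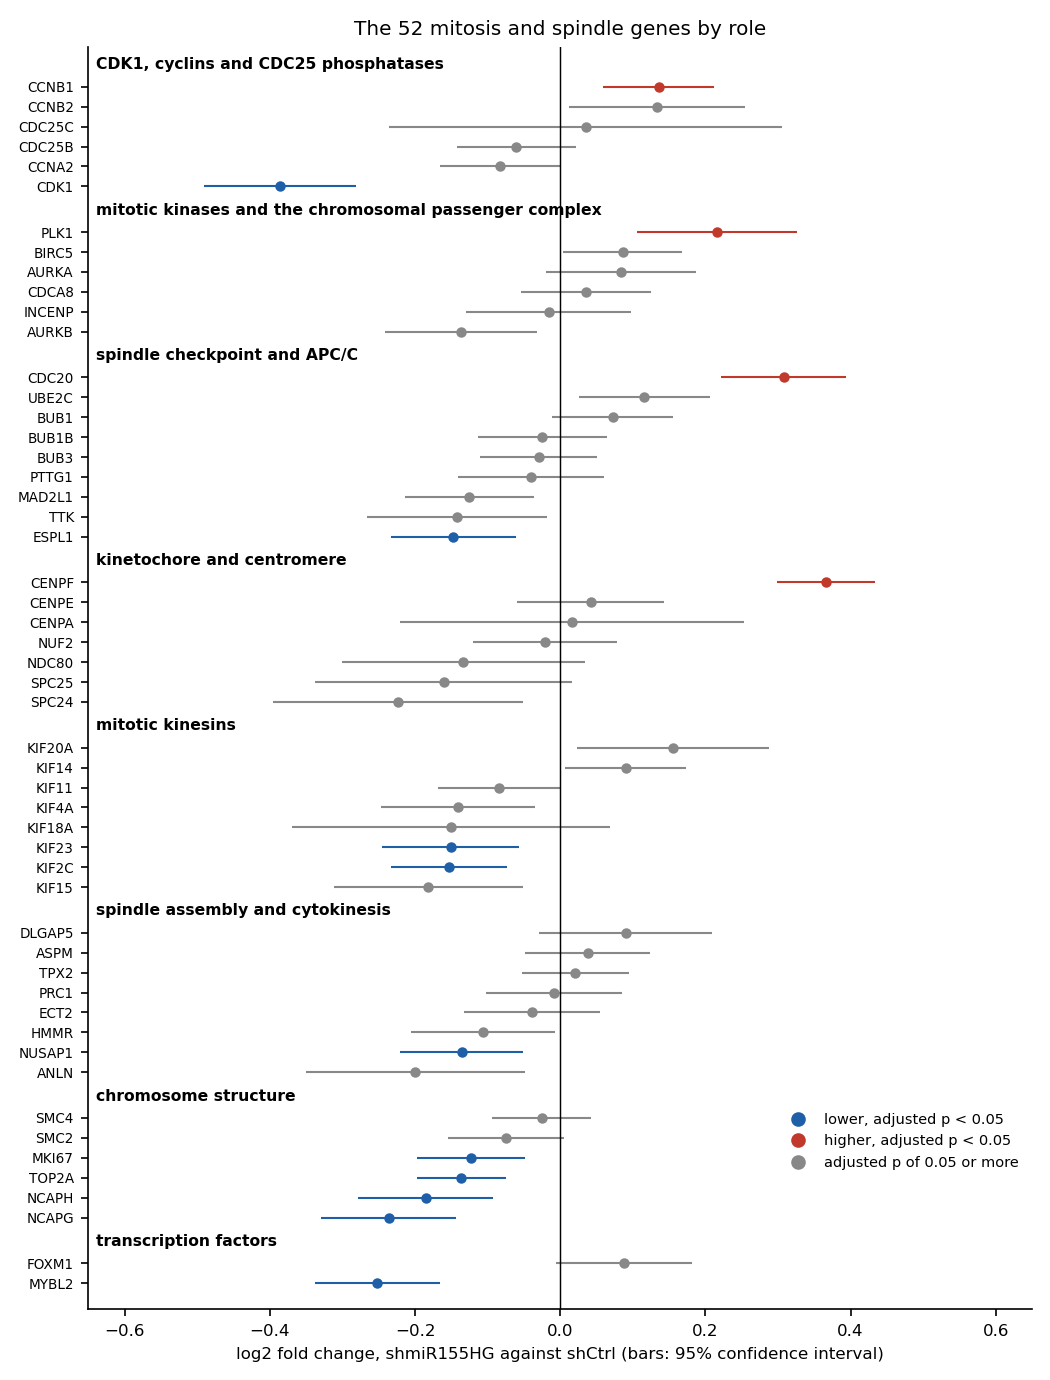
Log2 fold change of shmiR155HG against shCtrl (horizontal axis, bars for the 95% confidence interval) for each of the 52 genes, sorted by role, with colour for genes called lower, called higher and not called. CENPF and CDC20 lie farthest to the right and CDK1 farthest to the left, and the 6 genes of chromosome structure are all to the left of zero.

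Of the 6 genes of chromosome structure, 4 were lower (66.7%, against 8.02 percent of all genes tested) and none was higher. All 6 lay below zero, as did 6102 of the 12263 genes tested. NCAPG (ENSG00000109805, chr4:17810979-17844865, 21 exons), a non-SMC subunit of condensin I, was at 172, 158 and 168 CPM in shCtrl and at 134, 146 and 143 CPM in shmiR155HG libraries. No shmiR155HG library reached a shCtrl library, and NCAPG fell by 0.24 on the log2 scale (SE 0.045, adjusted p = 0.000478). NCAPH, the kleisin that closes the condensin I ring, was at 171, 171 and 187 CPM against 162, 148 and 156 CPM and fell by 0.19 (SE 0.045, adjusted p = 0.00503), a call that was lost without shmiR155HG replicate 2 (adjusted p = 0.0657). The ATPase subunits that condensins I and II share were not called, with log2 fold changes of −0.07 in SMC2 and −0.03 in SMC4. NCAPG reads per SMC4 read were accordingly 0.296 ± 0.0086 in shCtrl and 0.256 ± 0.013 in shmiR155HG libraries (SD, n = 3 each).

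TOP2A (ENSG00000131747, chr17:40388525-40417896, 35 exons), the topoisomerase that untangles sister chromatids, had the highest level of the 52 in CPM. It was at 949, 970.2 and 939 CPM in shCtrl and at 876, 876 and 849 CPM in shmiR155HG libraries. The groups were well separated, and TOP2A fell by 0.14 on the log2 scale (SE 0.030, adjusted p = 0.00204). After a correction for GC content the fall was 0.080 and the adjusted p 0.0583. MKI67, which encodes the proliferation marker Ki-67 that coats mitotic chromosomes, was at 853, 918 and 969 CPM in shCtrl and at 856, 829 and 832 CPM in shmiR155HG libraries. It fell by 0.12 on the log2 scale (SE 0.036, adjusted p = 0.020) and was the only called gene of the 14 whose groups overlapped, since shCtrl replicate 1 lay below shmiR155HG replicate 1. Without shCtrl replicate 3, its highest library, the adjusted p was 0.126, and the call was also lost without shCtrl replicate 2 or shmiR155HG replicate 2 or 3.

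The 2 transcription factors did not move together. MYBL2 (ENSG00000101057, chr20:43667019-43716495, 14 exons), which opens late cell cycle promoters with the MuvB core, was at 222, 213 and 237 CPM in shCtrl and at 191, 184 and 189 CPM in shmiR155HG libraries. Every shmiR155HG library was lower, and MYBL2 fell by 0.25 on the log2 scale (SE 0.042, adjusted p = 8.63e-05). FOXM1, which follows it on many of the same promoters, was at 130.0, 129 and 137 CPM against 134, 146 and 141 CPM, and shCtrl replicate 3 exceeded shmiR155HG replicate 1 (log2 fold change 0.09, SE 0.046, adjusted p = 0.221). FOXM1 reads per MYBL2 read were 0.591 ± 0.015 in shCtrl and 0.747 ± 0.044 in shmiR155HG libraries (SD, n = 3 each).

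**Figure D4:**
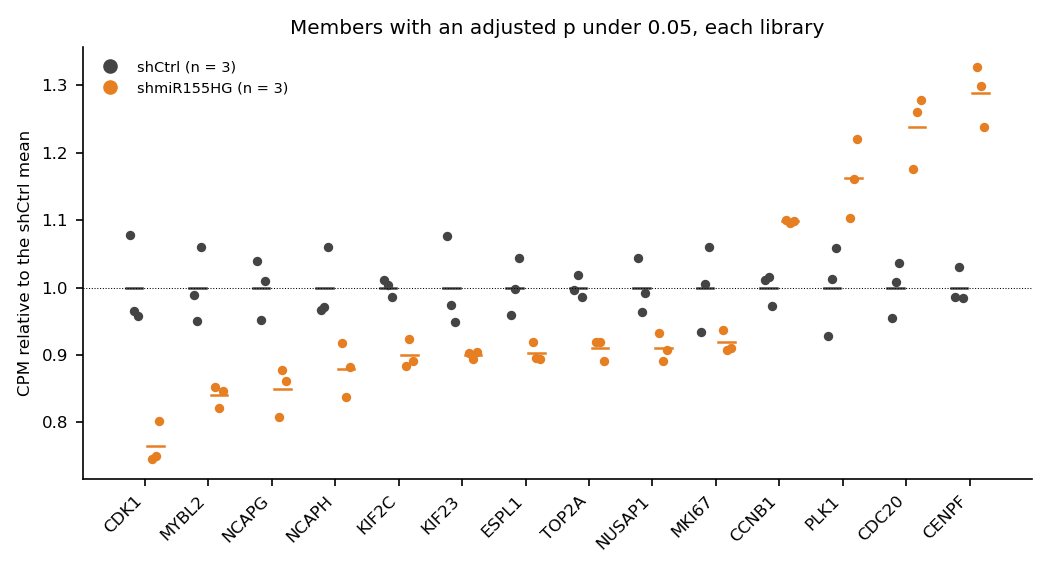
Level of each of the 14 called genes in every library, in CPM divided by the shCtrl mean of that gene (vertical axis), with 1 point per library and colour for the group. The points of the groups are apart for 13 genes and overlap for MKI67.

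The ratios within a library compare genes without any scaling between libraries. The pairs were chosen after the values of the genes were seen, so they are given as descriptions without a test. Besides the pairs above, PLK1 reads per AURKB read were 0.984 ± 0.098 in shCtrl and 1.25 ± 0.055 in shmiR155HG libraries (SD, n = 3 each) and did not overlap. CDC20 reads per read of FZR1, the other APC/C activator, were 2.85 ± 0.27 and 3.01 ± 0.19 and overlapped, FZR1 being itself higher in shmiR155HG cells (log2 fold change 0.23, adjusted p = 0.0207).

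**Figure D5:**
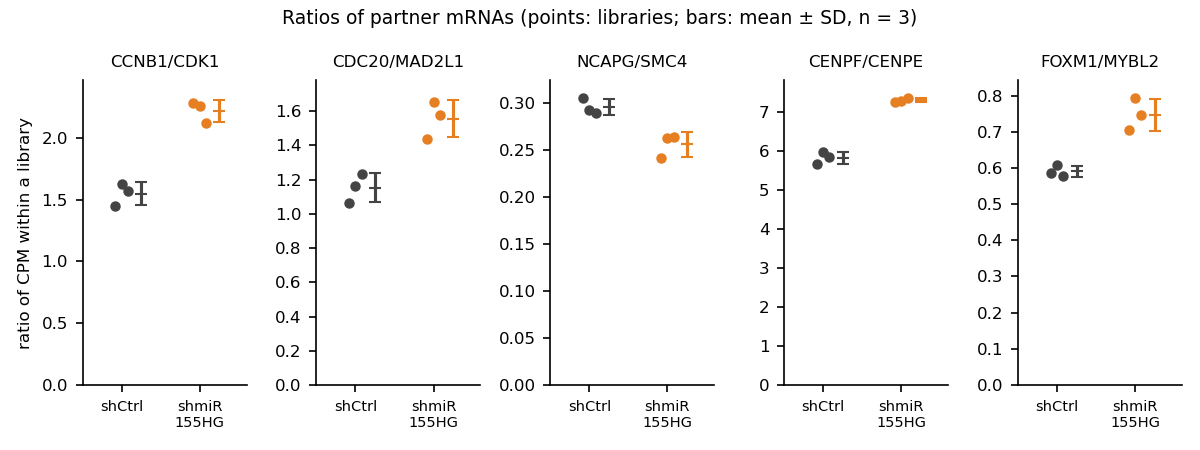
Ratio of the CPM of 2 genes within each library (vertical axis, starting at 0) for 5 pairs, with points for libraries and bars for mean ± SD (n = 3). CCNB1/CDK1, CDC20/MAD2L1, CENPF/CENPE and FOXM1/MYBL2 are higher in every shmiR155HG library, and NCAPG/SMC4 is lower in every one.

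The 14 calls did not rest equally on the libraries and the rule. CDK1, CDC20 and CENPF were called under all 16 alternatives to the processing. They were also the genes called by the rule of the study's methods, as applied here. That rule was edgeR's exact test with an unadjusted p under 0.01 and a fold over 1.2. It found 1 lower and 2 higher, against 3.8 and 4.49 percent of all genes. MYBL2, NCAPG, KIF2C and CCNB1 were called under every alternative but that rule, which asks for a larger fold. Leaving out 1 library left 5 to 11 genes lower and 3 to 5 higher, with 5 lower without shmiR155HG replicate 2 and 6 without shmiR155HG replicate 3.

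Compared per kilobase of the canonical transcript (GENCODE v44), the levels of the 52 genes spread from 5.54 CPM per kb in CDC25C to 214 in PTTG1, a gene with near-identical copies in the genome, with a median of 40.1 against 10.8 over all genes tested. After PTTG1 came UBE2C at 185, TOP2A at 160, CDC20 at 127, CCNB1 at 111 and SMC4 at 108 CPM per kb, and the lowest above CDC25C were KIF18A at 7.12 and ANLN at 9.68. Both the genes that rose and those that fell therefore included highly expressed ones. The replicates were close, with a median coefficient of variation within groups of 3.64% for the 52 genes, and no library held fewer than 412 counts of any of them. For genes within the same range of CPM it was 4.82%, but their median level was lower (60.4 against 153 CPM), so the 2 values are not like for like.

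GC content of the canonical transcript had a median of 42.1% in the 52 genes and 48.3% over all genes tested. Across the 52 genes, log2 fold change and GC content had a Spearman rho of 0.16, and across 12216 genes it was 0.25; these are points from the same 6 libraries. With GC content corrected per library, 9 of the genes were lower and 6 higher, 11 of the 14 calls remained, and the median went to −0.022. KIF23, NUSAP1 and TOP2A lost their call there, and AURKB, BUB1, SPC24 and KIF14 gained one. Reads of overlapping genes could not be told apart where strand was not used in counting, and of the called genes NCAPG, PLK1, KIF2C, KIF23 and NUSAP1 overlap an annotated gene on the other strand. NUSAP1 also overlaps AC087721.1 and OIP5-AS1 on its own strand, where strand would not separate reads.

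Other genes of mitosis were read from the same fit, in lists written with the results of these data already known, and each count stands against 8.02 percent lower and 7.26 percent higher over all genes tested. Of 34 other kinetochore genes, 15 were lower (44.1%) and none higher, with a median log2 fold change of −0.17. They included KNTC1 (−0.31) and ZWILCH (−0.23) of the complex that brings the checkpoint to kinetochores, and ZWINT (−0.23). The NDC80 subunits, none of which was called, had a median of −0.15. Of 19 cohesin and remaining condensin subunits, 5 were lower (26.3%) and none higher, among them the condensin II subunits NCAPD3 (−0.28) and NCAPG2 (−0.24) and the cohesin ATPase SMC3 (−0.23). Over all 8 subunits of condensins I and II, 4 were lower, NCAPG and NCAPH in one and NCAPD3 and NCAPG2 in the other.

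Of 18 APC/C subunits and regulators, 3 were lower (16.7%) and 2 higher (11.1%), few genes in either direction beside the 8.02 and 7.26 percent of all genes. UBE2S, which extends ubiquitin chains on APC/C substrates, rose with CDC20 by 0.26 on the log2 scale, and FZR1 rose by 0.23, while CDC27 (−0.21), ANAPC4 (−0.30) and the APC/C inhibitor FBXO5 (−0.25) fell. Of 18 other genes of mitotic entry that were tested, 4 were lower (22.2%) and 3 higher (16.7%), with MASTL (−0.41), CCNF (−0.21) and CKS1B (−0.15) lower and GTSE1 (0.20), WEE1 (0.20) and STK10 (0.16) higher. MASTL is the Greatwall kinase that shields CDK1 substrates, CKS1B a CDK subunit and WEE1 a kinase that inhibits CDK1. The list had no common direction, with 11 of the 18 genes not called, 10 below zero and 8 above.

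Of 24 centrosome genes, 3 were lower (STIL, TUBGCP5 and CEP192) and 1 higher (CEP63), a called share of 16.7% that was near the 15.3 percent of all genes. Of 27 other genes of spindle motors and cytokinesis that were tested, 5 were lower (18.5%) and 1, SAPCD2, higher. All 5 lower ones were subunits of the HAUS (augmin) complex, which branches spindle microtubules: HAUS2 (−0.29), HAUS6 (−0.18), HAUS4 (−0.35), HAUS1 (−0.33) and HAUS5 (−0.21), with all 8 subunits below zero. The HAUS count was made after the values were seen.

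Of 20 genes of DREAM, MuvB and the E2F family, 7 were lower (35.0%, against 8.02 percent of all genes) and 2 higher (10.0%, against 7.26 percent), led by E2F7 (−0.65), E2F1 (−0.21) and RB1 (−0.16) on the lower side and MYBL1 (0.21) and E2F3 (0.16) on the higher. Of 41 DNA replication genes, 26 were lower (63.4%), none was higher and the median was −0.17, with RRM2 (−0.39), CDC45 (−0.35) and PCNA (−0.24) at the top. Of 26 replication-dependent histone genes, 17 passed the filter and 9 did not, and several of the 17 lay near the filter and passed it through the shmiR155HG libraries, so no count or median is given for them. HIST1H2AC, which passed in every library, was at 12.2 ± 2.0 CPM in shCtrl and 30.9 ± 0.71 CPM in shmiR155HG cells (SD, n = 3 each) and rose by 1.34 on the log2 scale. The summed level of all 26 was 51.2 to 58.1 CPM in shCtrl and 101 to 107 CPM in shmiR155HG libraries, and since most of these mRNAs lack the poly(A) tail by which RNA was captured, these levels are only a part of them.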

How the data were processed

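Poly(A) RNA of stimulated shCtrl and shmiR155HG NK92 cells was sequenced, with 3 libraries in each group. HISAT2 was used by the authors for alignment to hg38, followed by StringTie and prepDE.py3, and they deposited whole-number counts per gene without normalization. Tool versions, the annotation release and strand use are not given in the sources used here. Groups came from the sample titles, since the treatment field of shmiR155HG replicates 2 and 3 spells the gene with a different number.

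All genes were fitted together in R 4.3.3 with edgeR 4.0.16 (TMM, more than 1 CPM in at least 2 libraries, robust quasi-likelihood test, Benjamini-Hochberg adjustment over 12263 genes, adjusted p under 0.05). "Called", "rose" and "fell" refer to this test. CPM values are TMM-scaled, and SD is over the 3 libraries of a group. The scripts were tested on simulated counts. The 16 alternatives covered scaling, filter, test (exact test, DESeq2 1.42.0), halved counts, a replicate block, GC content, each library left out and the rule of the study's methods. Positions and GC content came from GENCODE v44 and promoters from RefSeq, neither necessarily the authors' annotation.

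The mitosis genes and all lists were chosen with earlier results of these data known. Values per library were given for the 12 mitosis genes with the smallest adjusted p and for CDK1, CCNB1, PLK1, AURKB, BUB1B, CENPE, KIF11, TOP2A, MKI67, FOXM1 and MYBL2, and also for KIF23 and NUSAP1, the remaining called genes, added after their values were seen. Of each related list, up to 3 genes per direction with the smallest adjusted p were named, HAUS1 and HAUS5 being added.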

Additional observations from a re-analysis of the deposited data

How the results depend on the processing

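Under the rule of the study's methods 1 gene was lower and 2 were higher, against 466 lower and 551 higher of all genes (984 and 890 in the quasi-likelihood test). Leaving out 1 library gave 5 to 11 genes lower, 3 to 5 higher, a median between −0.068 (without shCtrl replicate 1) and −0.046, and 674 to 917 lower and 580 to 891 higher of all genes, the lowest counts without shmiR155HG replicate 2. GC correction moved the median to −0.022. Same-numbered libraries did not deviate together (correlations of −0.018, 0.00098 and 0.0035), so the numbers were not taken as pairs; with the replicate block 11 genes were lower and 4 higher, and 909 and 829 of all genes. Other alternatives left the counts within 1.5 times.

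Among genes not called, the direction turned for BUB1B (0.013), BUB3 (0.024), NUF2 (0.035), ECT2 (0.020) and SMC4 (0.033) with GC correction. It turned without 1 library for INCENP (range −0.071 to 0.036), CDCA8 (−0.0062 to 0.059), BUB1B (−0.047 to 0.0076), PTTG1 (−0.081 to 0.015), PRC1 (−0.033 to 0.032) and CENPA (−0.10 to 0.16). The cause was not tested. Each library held at least 412 counts of each gene. Precision rested on the spread between 3 libraries a group and on a spread shared over all genes tested, with 26.9 total degrees of freedom for CDK1.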
